A study of Homo sapiens with 6 samples.

Results

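The 40 genes described here encode the machinery with which the endoplasmic reticulum takes up, folds, inspects and ships secreted and membrane proteins, together with the sensors that read its load. They were chosen by gene symbol from a list of chaperones, disulfide isomerases, degradation factors, translocation factors, stress sensors and transport factors. The rule names symbols and no measured value, but the list was chosen with earlier results of these data known. Shares of members set beside those of all genes are therefore descriptions and not independent support. All 40 were present among the 21512 rows of the deposited table, and all 40 passed the filter on low counts. By role they comprised 11 chaperones and co-chaperones, 8 disulfide and prolyl isomerases with their oxidases, 8 degradation factors, 3 stress sensors, 5 translocation factors and 5 factors of vesicle traffic.

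Proteins that enter the endoplasmic reticulum are kept soluble by the chaperone BiP, the product of HSPA5, while disulfide isomerases form and correct their sulfur bridges. When unfolded protein accumulates, the membrane sensors IRE1 (from ERN1), ATF6 and PERK start the unfolded protein response, in which IRE1 splices the mRNA of the transcription factor XBP1 and ATF6 is cut to release a transcription factor of its own. In secretory epithelia such as the prostate this machinery carries a large export of glycoproteins.

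The data were 6 RNA sequencing libraries of prostate cancer cell lines, 1 for each combination of 2 lines and 3 treatments. LNCaP, an established line, responds to androgens, and BicR is given in the labels as a prostate cancer line with no account of how it was derived. The treatments were 24 h of ethanol vehicle, 10 nM DHT (dihydrotestosterone, an androgen) or 1 µM bicalutamide (an androgen receptor antagonist). All 6 cultures, the ethanol cultures included, had first spent 3 days in phenol red-free medium with 2.5% charcoal-treated serum, which is low in steroids. With 1 library per line and treatment, no difference inside a line had a replicate check, and the design could show only how 6 cultures differed from each other.

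Total counts ran from 42162723 to 55917016 per library. Levels are given as CPM, counts scaled to the TMM-adjusted library size, and differences as the change in log2(CPM + 1), which understates the change of low genes. Intervals on ratios are exact 95% intervals on the counts and cover counting error only. All 9 luminal prostate markers examined were present in every library, with summed levels between 3895 and 11565 CPM, whereas 4 basal markers summed to at most 1.07 CPM and 5 leukocyte markers to at most 0.811 CPM, with PTPRC at 0 throughout. The 5 fibroblast markers summed to 25.8 to 47.9 CPM, nearly all of it COL1A1, with COL1A2 at 0. The 3 endothelial markers summed to 3.03 to 10.8 CPM, nearly all of it VWF, with CDH5 at 0. KLK3, the gene of prostate-specific antigen, stood at 1403, 5259 and 979 CPM in LNCaP under ethanol, DHT and bicalutamide and at 672, 2601 and 630.2 CPM in BicR.

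One library stood apart for these genes before any treatment was compared. The 40 genes took 4.04% of all counts in the LNCaP ethanol library, against 1.64% and 1.63% in LNCaP under DHT and bicalutamide and 1.51%, 1.96% and 1.57% in BicR under ethanol, DHT and bicalutamide. Every comparison with LNCaP ethanol below rests on this single library, and the comparisons without it are given beside them. Ribosomal protein genes held 5.74% of the LNCaP ethanol counts and 6.34% of those under DHT, against 3.82% to 4.05% in the other 4 libraries. The part of either library-wide difference in the results was not tested. In such bulk RNA a larger share of cells carrying a transcript and more of it per cell cannot be told apart.

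Promoter sequences are shown for 5 of the genes because the stress elements of this response were defined in the promoters of ER chaperone genes. They are RefSeq windows of 250 bases upstream of the annotated start, in build GRCh38.p14, read 5′ to 3′ along the gene's strand, and 35 of the 40 genes had such a window. HSPA5 (chr9:125241344-125241593, minus strand), HSP90B1 (chr12:103930160-103930409, plus strand) and HYOU1 (chr11:119057206-119057455, minus strand) had the largest differences among the chaperones for LNCaP DHT against ethanol. HERPUD1 (chr16:56931892-56932141, plus strand) had one of the larger differences under DHT in both lines, and XBP1 (chr22:28800570-28800819, minus strand) differed least of the 40 in that comparison. Capitals mark matches on either strand to the endoplasmic reticulum stress element ERSE (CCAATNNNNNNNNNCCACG), to ERSE-II (ATTGGNCCACG) or to the unfolded protein response element UPRE (TGACGTGG).
HSPA5: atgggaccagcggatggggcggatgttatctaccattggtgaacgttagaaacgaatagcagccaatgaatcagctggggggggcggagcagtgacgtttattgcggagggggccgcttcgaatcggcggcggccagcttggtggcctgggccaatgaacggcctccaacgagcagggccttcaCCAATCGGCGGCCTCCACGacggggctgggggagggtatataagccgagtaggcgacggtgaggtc
HSP90B1: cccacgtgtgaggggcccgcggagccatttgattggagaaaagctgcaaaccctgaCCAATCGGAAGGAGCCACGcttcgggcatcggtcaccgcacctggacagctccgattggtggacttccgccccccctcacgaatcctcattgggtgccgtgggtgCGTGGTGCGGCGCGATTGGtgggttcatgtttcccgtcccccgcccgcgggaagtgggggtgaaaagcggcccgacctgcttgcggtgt
HYOU1: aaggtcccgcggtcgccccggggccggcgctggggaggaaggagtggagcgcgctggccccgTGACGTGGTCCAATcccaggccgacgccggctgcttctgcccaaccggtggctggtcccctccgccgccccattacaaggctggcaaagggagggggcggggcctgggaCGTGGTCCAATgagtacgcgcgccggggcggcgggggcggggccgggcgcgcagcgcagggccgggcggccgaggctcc
HERPUD1: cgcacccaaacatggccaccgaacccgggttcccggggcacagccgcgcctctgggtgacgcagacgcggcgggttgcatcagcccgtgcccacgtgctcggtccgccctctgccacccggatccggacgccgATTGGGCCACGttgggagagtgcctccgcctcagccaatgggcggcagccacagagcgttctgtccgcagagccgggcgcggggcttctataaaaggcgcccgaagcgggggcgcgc
XBP1: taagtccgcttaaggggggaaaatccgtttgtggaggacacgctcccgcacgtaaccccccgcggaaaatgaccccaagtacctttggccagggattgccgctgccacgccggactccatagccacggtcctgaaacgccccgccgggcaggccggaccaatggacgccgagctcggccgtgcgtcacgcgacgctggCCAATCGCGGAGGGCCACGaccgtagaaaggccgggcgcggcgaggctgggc

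ERSE was found in 8 of the 35 windows (HSPA5, HSP90B1, CALR, CANX, CRELD2, PDIA6, ERO1LB and XBP1), or 22.9%. Among the 10799 tested genes with a window of the same length, members included, 18 or 0.167% had it. ERSE-II was found in HYOU1, SDF2L1 and HERPUD1, 8.57% of the members' windows, against 0.13% of tested genes, and UPRE in HYOU1, SSR3 and KDELR3, 8.57% against 1.0%. A plain CCAAT box, which both ERSE forms contain, was present in 82.9% of the members' windows and 41.6% of all. In the HSPA5 window the ERSE ended 47 bases before the start, and HSP90B1 carried an ERSE on each strand, at 175 and 70 bases from it. In HYOU1 an ERSE-II and the UPRE overlapped. These are letter matches in the annotated window, some genes having more than 1 window, and say nothing about binding in these cells. Because the stress elements were defined in promoters of ER chaperone genes, a higher share among the members was in part fixed beforehand.

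The LNCaP ethanol library was the highest of the 6 for 37 of the 40 genes, against 20.5% of all 13885 genes tested. The exceptions were XBP1, ERN1 and KDELR2, whose highest library was BicR DHT. For 11 genes LNCaP ethanol exceeded each other library at least 2-fold, against 0.49% of all genes, and 8 of these 11 were chaperones or co-chaperones. Within LNCaP, ethanol exceeded both DHT and bicalutamide in CPM in 40 of 40 genes, against 28.3% of all genes. In BicR the order was different. There the DHT library exceeded both ethanol and bicalutamide in 38 of 40 genes, all but ERO1LB and KDELR3, against 42.0% of all genes. When LNCaP ethanol was set aside, BicR DHT was the highest of the remaining 5 libraries for 28 of 40 genes, against 24.5% of all. Across those 5 libraries the median range of a gene was 0.59 on the log2 scale, and it was 1.21 across all 6.

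**Figure D1:**
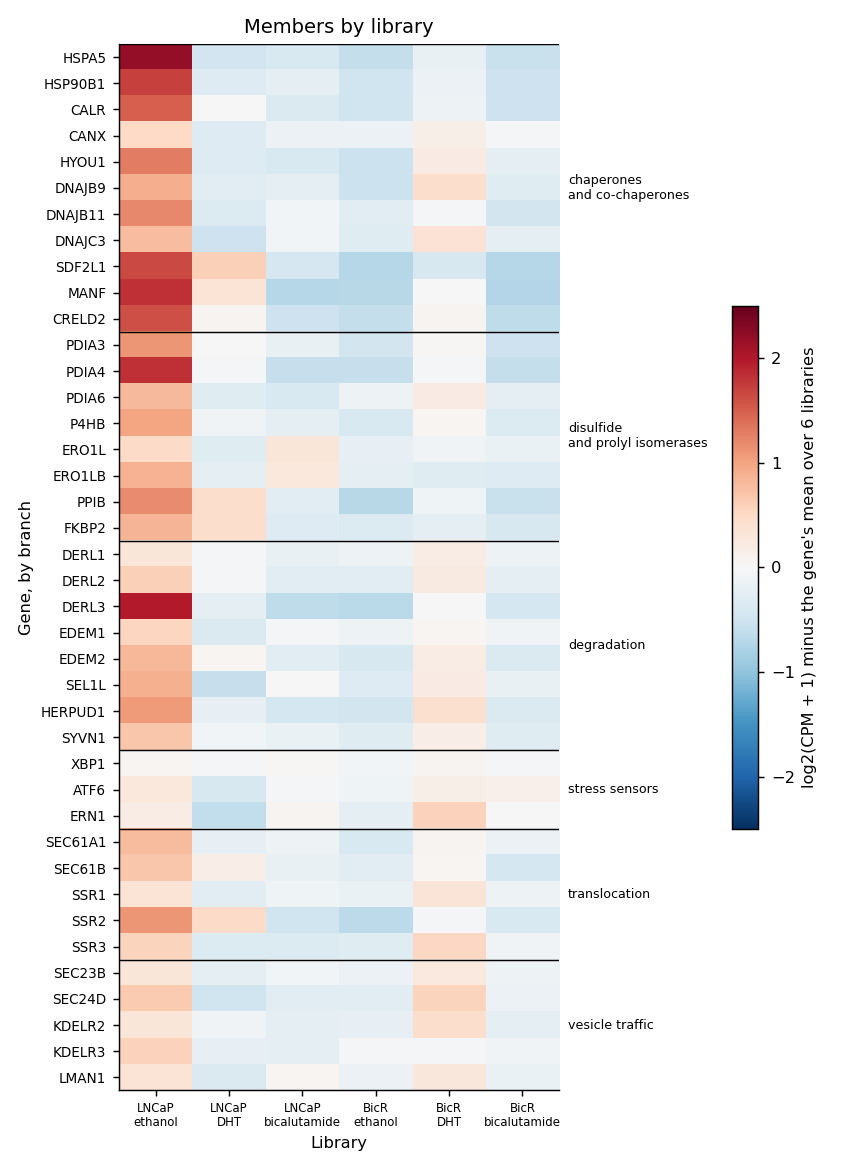
Each row is 1 of the 40 genes, grouped by role, and each column 1 library, and colour gives log2(CPM + 1) minus the gene's mean over the 6 libraries. The LNCaP ethanol column is the highest for 37 of 40 genes, and BicR DHT exceeds the other BicR libraries in 38 of 40.

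The first comparison within LNCaP set DHT against ethanol. All 40 genes were lower under DHT, with a median difference of -0.95, and 20 of 40 were at least 2-fold lower and 0 at least 2-fold higher. Over all genes tested, 1.19% were at least 2-fold lower and 1.4% at least 2-fold higher, and the median was 0.01. The chaperones and co-chaperones had the lowest median (-1.49) and 10 of 11 at least 2-fold lower. The isomerases followed with 5 of 8 (median -1.08), then degradation with 3 of 8 (-0.83). Of the translocation factors 1 of 5 was 2-fold lower (-0.62), as was 1 of 5 traffic factors (-0.70), and 0 of 3 sensors were (-0.67).

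Bicalutamide against ethanol in LNCaP gave a similar picture, but it used the same ethanol library, so the comparisons are not independent. All 40 genes were lower in CPM under bicalutamide, with a median of -0.92. Of them 19 of 40 were at least 2-fold lower and 0 higher, against 1.52% and 1.08% of all genes. XBP1 was only slightly lower, at 769 against 780 CPM, and in the deposited RPKM it was higher under bicalutamide (291 against 276). The chaperone median was -1.86 with 9 of 11 at least 2-fold lower, and the isomerase median -1.21 with 6 of 8. DHT against bicalutamide, which leaves out the ethanol library, gave a median of 0.04 with 22 genes above 0 and 18 below. In it 2 of 40 genes, MANF and SDF2L1, were at least 2-fold higher under DHT and 0 lower, against 1.58% and 0.893% of all genes.

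**Figure D2:**
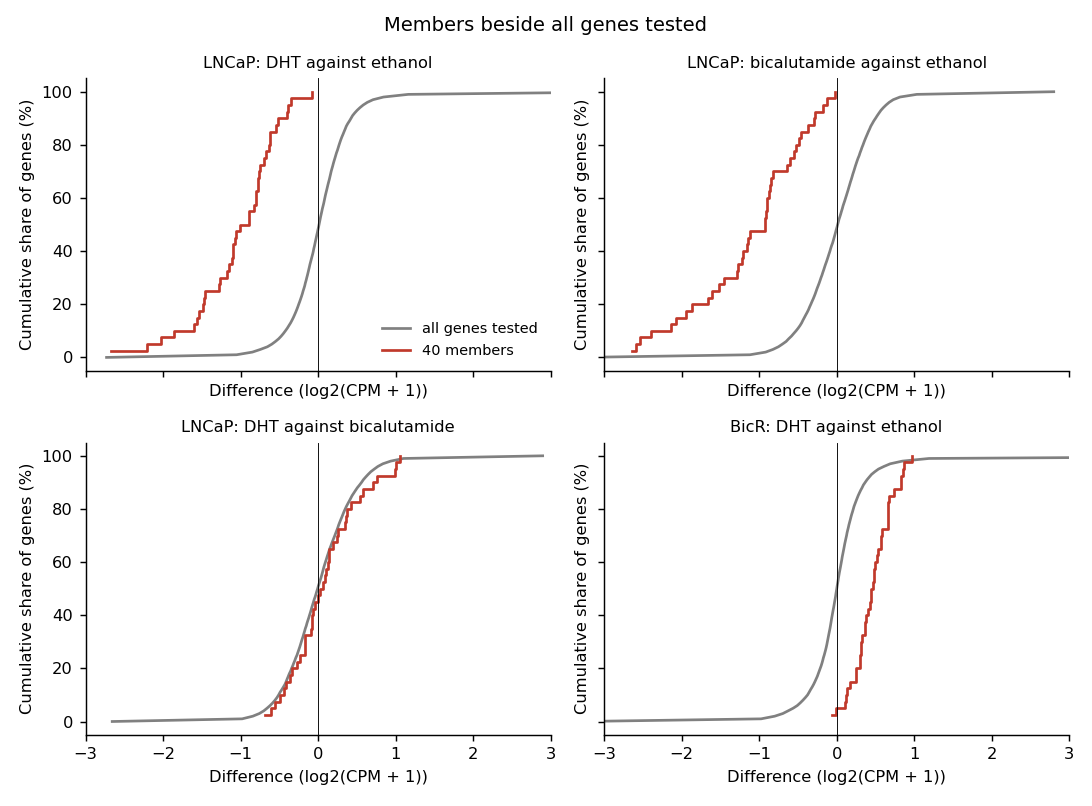
Cumulative share of genes (vertical axis, percent) by difference in log2(CPM + 1) (horizontal axis) for the 40 members (red) and all 13885 genes tested (grey) in 4 comparisons. The members lie left of all genes in both LNCaP comparisons with ethanol (medians -0.95 and -0.92), near them for DHT against bicalutamide (0.04) and right of them for DHT against ethanol in BicR (0.46).

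Among the chaperones, HSPA5 was measured at 8598, 1348 and 1435 CPM in LNCaP under ethanol, DHT and bicalutamide, and at 1245, 1646 and 1275 CPM in BicR. The LNCaP ethanol level was 6.38 times that under DHT (95% counting interval 6.33 to 6.43) and 5.22 times the highest of the other 5 libraries, which lay within 0.40 of each other on the log2 scale. HSP90B1, the ER member of the HSP90 family, stood at 5193, 1276 and 1354 CPM in LNCaP and 1119.6, 1437 and 1111 CPM in BicR, again with LNCaP ethanol alone above the rest. It was 4.07-fold higher under ethanol than under DHT (4.04 to 4.10). HYOU1, which exchanges the nucleotide on BiP, stood at 2199.9, 725 and 694 CPM in LNCaP and 625, 1042 and 767 CPM in BicR. Here LNCaP ethanol was 3.03-fold above LNCaP DHT (3.00 to 3.07), and BicR DHT was the second library.

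CALR, a lectin chaperone of glycoproteins, had a difference of -1.49 between LNCaP DHT and ethanol, while its membrane-bound relative CANX had -0.82, the smallest of the 11. The co-chaperones DNAJB11, DNAJC3 and DNAJB9, J-domain proteins that deliver clients to BiP, had -1.54, -1.28 and -1.18. DNAJB9 stood at 115, 50.2 and 51.6 CPM in LNCaP and 41.8, 83.3 and 49.1 CPM in BicR, so that both LNCaP ethanol and BicR DHT stood above the other 4 libraries. CRELD2, a soluble ER protein, had -1.56.

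MANF, a soluble ER protein that binds BiP, and SDF2L1, a partner of DNAJB11, also differed between the LNCaP DHT and bicalutamide libraries. MANF stood at 479.6, 172 and 82.0 CPM in LNCaP and 83.3, 134 and 80.8 CPM in BicR. SDF2L1 stood at 78.7, 37.3 and 18.1 CPM in LNCaP and 14.5, 18.2 and 14.5 CPM in BicR. For both, LNCaP DHT was the second highest library and exceeded LNCaP bicalutamide by 1.06 and 1.01 on the log2 scale. The step was not particular to them. SSR2 stood at 622 and 313 CPM under DHT and bicalutamide in LNCaP, just short of 2-fold, and FKBP2 at 22.4 and 12.8 CPM. HSPA5 (-0.09) and HSP90B1 (-0.09) were among the 18 genes below 0. The SDF2L1 ratio of DHT to bicalutamide was 2.06 with a counting interval of 1.91 to 2.23.

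Among the isomerases, PDIA4 (ERp72) stood at 2801, 771 and 531 CPM in LNCaP and 526, 759.9 and 522 CPM in BicR, and LNCaP ethanol exceeded LNCaP DHT 3.63-fold (3.59 to 3.67). PDIA6 stood at 798, 369 and 346 CPM in LNCaP and 417, 522 and 387 CPM in BicR, a ratio of ethanol to DHT of 2.16. PDIA3, which works with CALR and CANX, stood at 1632, 762 and 670.0 CPM in LNCaP and 549, 776 and 530.3 CPM in BicR, a ratio of 2.14. P4HB, the archetypal disulfide isomerase, had a difference of -1.07 between LNCaP DHT and ethanol. The oxidases that recharge the isomerases differed from each other: ERO1LB had -1.09 and ERO1L -0.78, and under bicalutamide they had -0.60 and only -0.17. PPIB, a prolyl isomerase (cyclophilin B), stood at 1501, 892 and 546 CPM in LNCaP and 408, 609.9 and 451 CPM in BicR, so that LNCaP DHT lay between the other LNCaP libraries and above all 3 BicR libraries. FKBP2, the other prolyl isomerase, had -0.40.

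In the degradation branch, DERL3, a derlin of the channel that returns misfolded proteins to the cytosol, was the lowest member of all in RPKM. It stood at 15.1, 2.47 and 1.59 CPM in LNCaP and 1.54, 3.00 and 1.97 CPM in BicR, with LNCaP ethanol 6.10-fold above LNCaP DHT (counting interval 5.07 to 7.39). SEL1L, the adaptor of the ubiquitin ligase SYVN1, stood at 586, 211 and 311 CPM in LNCaP and 251, 361 and 277 CPM in BicR, and LNCaP DHT was its lowest library. HERPUD1, a membrane scaffold of the same ligase complex, stood at 714, 296 and 249.8 CPM in LNCaP and 246, 449.6 and 267 CPM in BicR. Its ethanol level in LNCaP exceeded that under DHT 2.42-fold (2.37 to 2.46), and its DHT level in BicR exceeded ethanol 1.83-fold (1.79 to 1.87). The other 5, SYVN1, DERL1, DERL2, EDEM1 and EDEM2, had differences between -0.89 (EDEM1) and -0.35 (DERL1) for LNCaP DHT against ethanol.

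LNCaP ethanol was the highest library for 1 of the 3 genes of the sensor branch, ATF6. The branch median for LNCaP DHT against ethanol (-0.67) was close to that of the translocation factors (-0.62). XBP1 stood at 780.2, 735 and 769 CPM in LNCaP and 711, 784 and 724 CPM in BicR, so no library stood apart, with a difference of only -0.09 between LNCaP DHT and ethanol. Its ratio of ethanol to DHT was 1.06 (1.05 to 1.08), the smallest of the 40. Counts were given per symbol, so spliced and unspliced XBP1 mRNA are not distinguished. ATF6 stood at 140.1, 87.9 and 114 CPM in LNCaP and 107, 128 and 126 CPM in BicR. ERN1 stood at 125, 71.0 and 115 CPM in LNCaP and 91.3, 163 and 110.2 CPM in BicR, with its lowest library LNCaP DHT and its highest BicR DHT. For ERN1 and ATF6 LNCaP bicalutamide was close to LNCaP ethanol (-0.12 and -0.30), unlike for the chaperones.

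**Figure D3:**
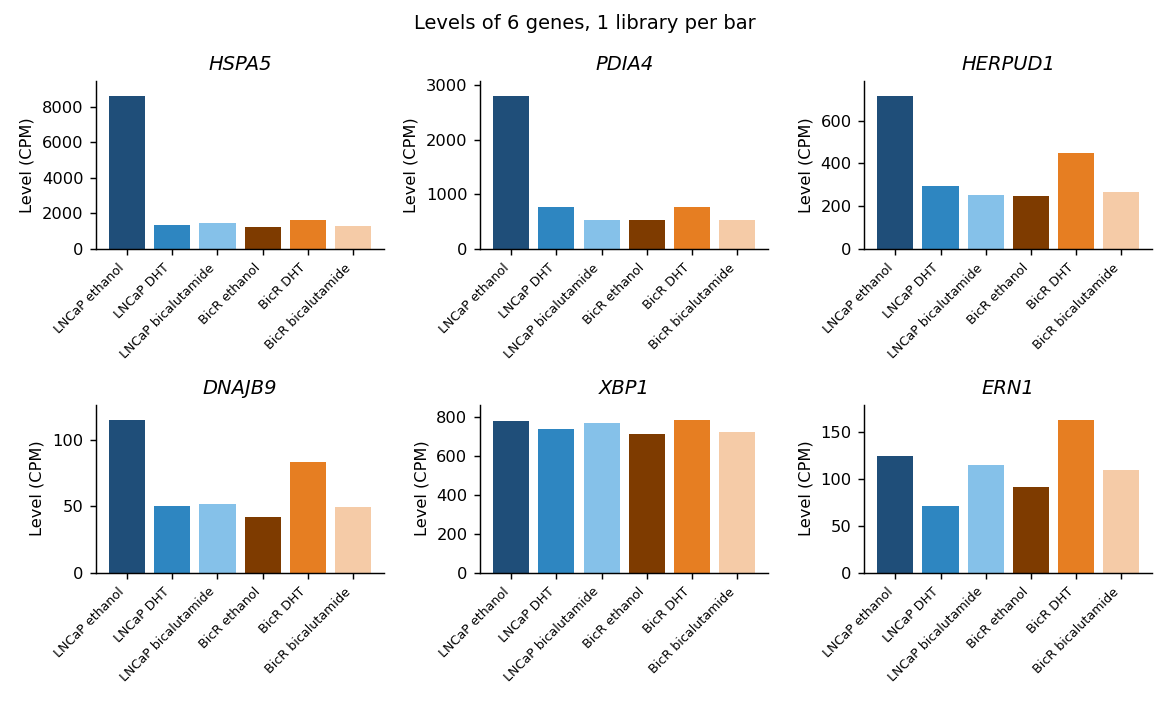
Levels in CPM (vertical axes, each starting at 0) of 6 genes in the 6 libraries, 1 library per bar and so without error bars. HSPA5 and PDIA4 are high in LNCaP ethanol alone, HERPUD1 and DNAJB9 are also high in BicR DHT, XBP1 is nearly level, and ERN1 is highest in BicR DHT at 163 CPM.

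Of the translocation factors, SEC61A1, the pore of the translocation channel, stood at 2539.6, 1264 and 1334 CPM in LNCaP and 1129.7, 1541 and 1314 CPM in BicR, a ratio of LNCaP ethanol to DHT of 2.01. SSR3, a subunit of the translocon-associated complex, stood at 531, 286 and 286 CPM in LNCaP and 293, 521 and 342 CPM in BicR. Its LNCaP ethanol and BicR DHT levels were nearly equal, at a ratio of 1.02. The channel subunit SEC61B had -0.52 for LNCaP DHT against ethanol, and the SSR3 partners SSR1 and SSR2 both had -0.62.

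Of the traffic factors, SEC24D, a cargo-selecting subunit of the COPII coat, stood at 146, 65.2 and 76.7 CPM in LNCaP and 75.7, 137 and 84.1 CPM in BicR. As for SSR3, LNCaP ethanol and BicR DHT were the high pair, at a ratio of 1.06. KDELR3, a receptor that retrieves escaped ER proteins from the Golgi, was low, at 15.3, 8.38 and 8.26 CPM in LNCaP and 9.72, 9.71 and 9.20 CPM in BicR, and its 3 BicR levels were nearly the same. Its relative KDELR2 had -0.39 for LNCaP DHT against ethanol, the coat subunit SEC23B -0.54 and the cargo lectin LMAN1 -0.70.

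Per length the branches differed widely in level. By median RPKM over the 6 libraries P4HB was the most abundant at 480.4, followed by CALR at 434, PPIB at 377, HSP90B1 at 318 and XBP1 at 276, and DERL3 was the least abundant at 0.466. XBP1 thus combined a high level with the smallest range, 0.14 on the log2 scale of CPM without LNCaP ethanol. SDF2L1 had the widest range without that library, 1.30.

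In BicR, DHT against ethanol went the other way. The median difference was 0.46, with 38 of 40 genes above 0, though 0 of 40 reached 2-fold in either direction, against 1.45% of all genes at least 2-fold higher and 0.922% lower. The largest differences were those of DNAJB9 (0.98), HERPUD1 (0.87) and SEC24D (0.85), from 3 different branches, followed by ERN1 and SSR3 (both 0.83). ERO1LB (-0.06) and KDELR3 (-0.0015) were the exceptions, and the counting intervals of their ratios, 0.879 to 1.04 and 0.874 to 1.14, include 1. Branch medians lay between 0.25 for the sensors and 0.50 for degradation, a narrower spread than in LNCaP. HSPA5, first in LNCaP, had 0.40 here. The median was 0.40 for the chaperones, 0.38 for the isomerases, 0.48 for the translocation factors and 0.44 for the traffic factors.

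**Figure D4:**
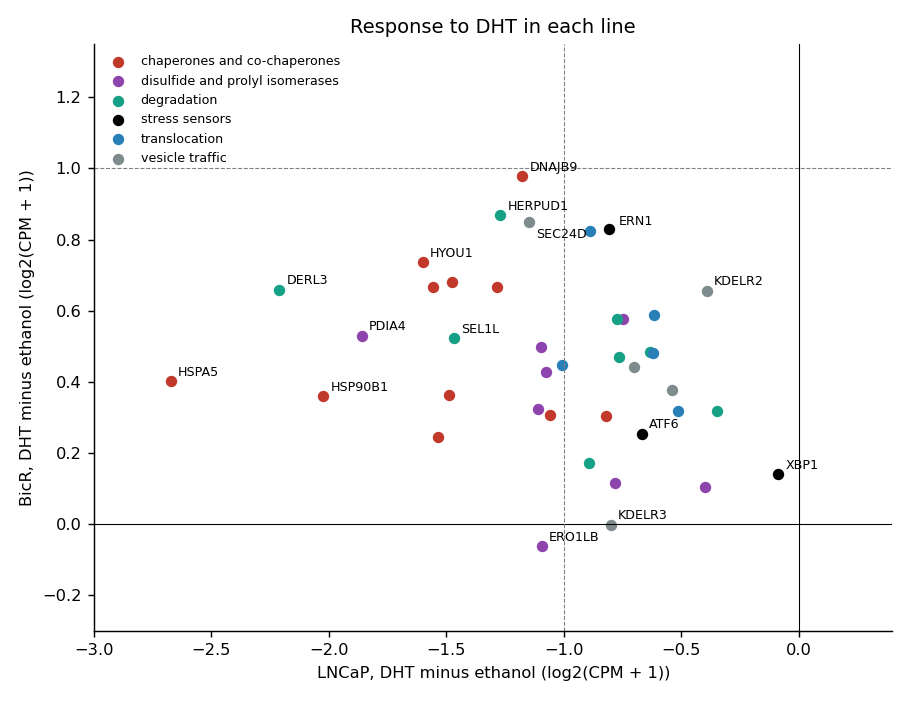
Difference between DHT and ethanol in log2(CPM + 1) for each of the 40 genes in LNCaP (horizontal axis) and BicR (vertical axis), coloured by role, with dashed lines at 2-fold. In 38 of 40 genes the LNCaP value is below 0 and the BicR value above 0, and XBP1 has the smallest LNCaP difference.

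Against bicalutamide, BicR DHT was higher for 40 of 40 genes, with a median of 0.43 from 0.02 (ATF6) to 0.75 (HERPUD1), and again 0 of 40 reached 2-fold, against 1.43% of all genes higher and 1.04% lower. The DHT library is common to both of these BicR comparisons. BicR bicalutamide against ethanol, which does not use it, had a median of 0.03 and ran from -0.18 (DNAJB11) to 0.29 (HYOU1). There 0 of 40 genes reached 2-fold, and so did 0.0% of all genes in either direction. For 38 of 40 genes DHT was thus below ethanol in LNCaP and above it in BicR, a combination shown by 24.2% of all genes tested. The difference between the lines in this response could not be tested with 1 library each.

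The lines themselves differed for these genes mainly where LNCaP ethanol was used. Under ethanol, all 40 genes were lower in BicR, with a median of -1.14, and 22 of 40 were at least 2-fold lower and 0 higher, against 3.88% and 2.62% of all genes. Under bicalutamide the median was -0.07, from -0.59 (ERO1LB) to 0.26 (SSR3), and 0 of 40 reached 2-fold, against 1.27% of all genes lower and 0.684% higher. Under DHT the median was 0.25 with 30 genes higher in BicR. ERN1 (1.19) and SEC24D (1.06) were the 2 of 40 at least 2-fold higher, against 2.81% of all genes, and 0 were at least 2-fold lower, against 4.7%. SDF2L1 lay just inside that limit at -0.996, followed by FKBP2 (-0.68), PPIB and SSR2 (both -0.55).

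Tests across libraries used an additive model of line and treatment in edgeR, in which any disagreement between the lines is error. It called 0 of 40 genes in each of its 4 contrasts at an adjusted p of 0.05. For DHT against ethanol 0.158% of all genes were called higher and 0.0072% lower. The members' median fold change was -0.29 (log2), 37 of 40 being negative. At an unadjusted p under 0.05, 1 member (ERO1LB) was lower, against 401 of all 13885 genes, and the members' lowest adjusted p was 0.871. HSPA5 had -1.34 with a standard error (SE) of 0.66. For bicalutamide against ethanol 0.0% of all genes were called in either direction, and the members' median was -0.53. There 8 members were lower at an unadjusted p under 0.05, against 89 of all 13885 genes, and the members' lowest adjusted p was 0.996. For DHT against bicalutamide 0.166% of all genes were called higher and 0.0% lower. The members' median was 0.29, with 35 of 40 positive and a lowest adjusted p of 0.731 (SEC61B). At an unadjusted p under 0.05 there were 0 members, against 483 of all genes higher and 504 lower.

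For BicR against LNCaP over the 3 treatments, 1.58% of all genes were called higher and 2.84% lower. The members' median was -0.29, and 34 of 40 were negative. At an unadjusted p under 0.05, 5 of 40 (SDF2L1, FKBP2, ERO1LB, PPIB and SEC61B) were lower, against 1969 of all 13885 genes. The share of members was no larger than that of all genes. SDF2L1 was nearest to a call, at -1.26 (SE 0.35, edgeR adjusted p = 0.0745), and was lower in BicR under all 3 treatments. MANF had -0.93 (SE 0.43) and PPIB -0.89 (SE 0.30), with edgeR adjusted p = 0.215 and 0.120. DESeq2, the alternative tool, called SDF2L1 and PPIB lower in BicR, 2 of 40 members against 6.72% of all genes, and 0 members in the other 3 contrasts. With no filter on low counts edgeR called the same 2 genes, against 4.63% of the 18524 genes then tested. These shares of members are near those of all genes. Without the filter the members lower at an unadjusted p under 0.05 numbered 12 in this contrast, against 2328 of all 18524 genes. They numbered 18 for bicalutamide against ethanol, against 197 of all genes, and 4 for DHT against ethanol, against 522.

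These medians and calls depended on single libraries. With LNCaP ethanol left out, so that ethanol was measured in BicR only, the members' median was 0.37 for DHT against ethanol, 0.11 for bicalutamide against ethanol and 0.14 for BicR against LNCaP. With BicR ethanol left out, so that ethanol was measured in LNCaP only, they were -0.88, -1.11 and 0.14, and 11 of the 40 genes were called lower under DHT and 19 under bicalutamide, against 0.763% and 0.684% of all genes in the same fits. Leaving out LNCaP DHT gave 0.13 for DHT against ethanol and -0.64 for BicR against LNCaP. Leaving out BicR DHT gave -0.76 for DHT against ethanol and -0.64 for BicR against LNCaP. For DHT against bicalutamide the median ran from -0.24 without BicR DHT to 0.69 without LNCaP DHT. It was 0.09 when LNCaP bicalutamide was left out and 0.50 when BicR bicalutamide was. MANF was called higher in that contrast without LNCaP ethanol, 1 of 40 members against 0.915% of all genes. ERO1LB was called lower in BicR without LNCaP DHT and without BicR DHT, again 1 of 40, against 1.9% and 2.13%. Without LNCaP bicalutamide, and likewise without BicR bicalutamide, 0 of the 13885 genes were called in any of the 4 contrasts.

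Genes with ERSE or ERSE-II in the window were compared with the rest as a description. The 11 with either element had a median of -1.27 for LNCaP DHT against ethanol and 9 were at least 2-fold lower, whereas the 24 with a window and neither element had a median of -0.79 and 8 were. In BicR, DHT against ethanol gave medians of 0.36 and 0.47. The 11 included the chaperones HSPA5, HSP90B1, CALR, CANX, HYOU1, SDF2L1 and CRELD2, whose branch had the lowest LNCaP median (-1.49). The chaperones DNAJB9, DNAJB11, DNAJC3 and MANF were among the 24. The part of branch in the LNCaP medians was not tested. XBP1, with an ERSE in the sequence printed above but not in its other window, had -0.09. PDIA4, with none of the 3 elements in either of its windows, had -1.86. Both groups thus held genes with small and large differences.

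Differences between DHT and bicalutamide in LNCaP went with gene length. Relative length, taken as counts divided by RPKM, had a Spearman correlation of -0.75 with this difference over the 40 genes, which share these 2 libraries, and of -0.56 over all tested genes. The 10 shortest members, among them MANF, SDF2L1, PPIB, FKBP2 and SEC61B, had a median of 0.65, and the 10 longest, among them SEL1L, ERN1 and DNAJC3, -0.38. For LNCaP bicalutamide against ethanol the correlation was 0.40 over the members and 0.37 over all genes, with medians of -1.36 for the 10 shortest and -0.62 for the 10 longest. For DHT against ethanol it was -0.16 over the members and -0.26 over all genes in LNCaP, and 0.08 and -0.0017 in BicR. For BicR against LNCaP it was 0.32 under ethanol and 0.65 under DHT over the members, and 0.23 and 0.37 over all genes. The shares of ribosomal protein genes, which are short, were 6.34% in LNCaP DHT and 3.92% in LNCaP bicalutamide. The part of length in the values of MANF, SDF2L1 and PPIB was not tested.

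**Figure D5:**
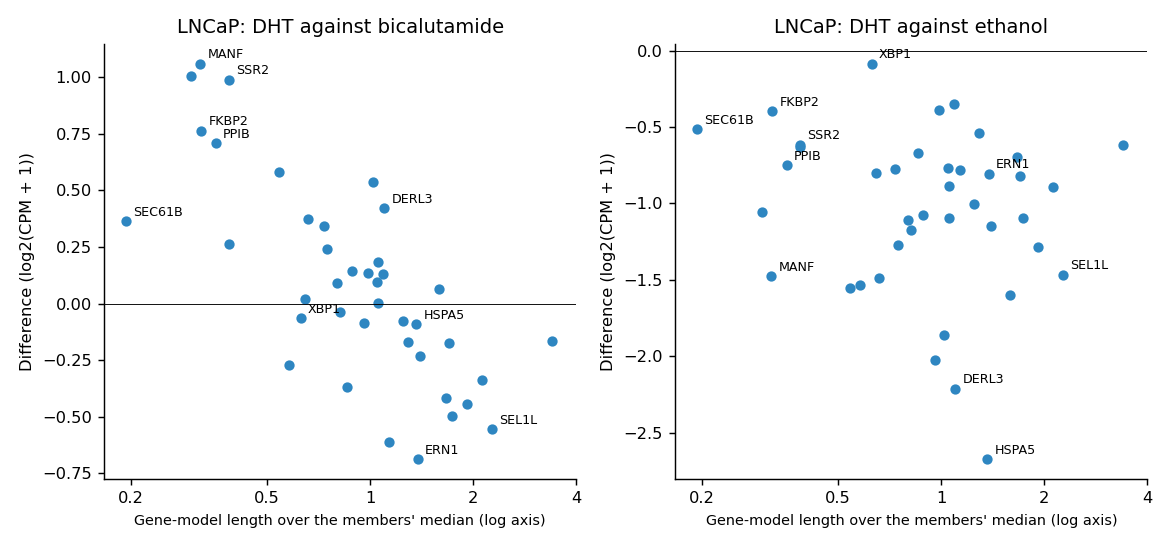
Difference in log2(CPM + 1) (vertical axis) against gene-model length relative to the members' median (horizontal log axis), 1 point per gene, for 2 LNCaP comparisons. For DHT against bicalutamide short genes such as MANF tend to lie above 0 and long ones such as SEL1L below (Spearman -0.75). Exceptions include XBP1, short and below 0, and HYOU1, long and above 0. For DHT against ethanol all 40 genes lie below 0 (Spearman -0.16).

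A further 128 genes of the same pathways, in 7 lists, were examined for breadth, and 125 passed the filter. In LNCaP, DHT against ethanol had a median of -0.48 with 110 of 125 genes below 0, 9 at least 2-fold lower and 0 higher. Over all genes tested the median was 0.01, with 1.19% at least 2-fold lower and 1.4% higher. Bicalutamide against ethanol had a median of -0.48 over the 125, with 19 at least 2-fold lower, against 1.52% of all genes. In BicR, DHT against ethanol had a median of 0.29, with 104 of 125 above 0 and 4 at least 2-fold higher (AGR2, PDIA5, EDEM3 and UBE2J1). Over all genes that median was 0.002, with 1.45% at least 2-fold higher. The lists ranged in the LNCaP DHT comparison from the oligosaccharyltransferase that attaches N-glycans (median -0.62, 10 of 10 below 0) and the PERK branch (-0.59, 10 of 12) to degradation factors (-0.21, 18 of 22). Coat and cargo proteins of ER and Golgi traffic had -0.52 with 27 of 28 below 0.

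The other folding factors had a median of -0.51, translocation and signal cleavage factors -0.43, and the partners of ATF6 and IRE1 -0.39. The disulfide isomerase AGR2 had the largest difference of these genes. It stood at 88.5, 12.5 and 8.20 CPM in LNCaP and 2.61, 12.1 and 3.11 CPM in BicR, so that LNCaP ethanol exceeded LNCaP DHT 7.08-fold (6.53 to 7.69), and BicR DHT exceeded BicR ethanol 4.63-fold (3.82 to 5.64). ATF3, a transcription factor downstream of PERK, stood at 467 CPM in LNCaP ethanol and 188 CPM under DHT, and at 143 and 198 CPM in BicR. The largest differences for LNCaP DHT against ethanol in the remaining lists were those of STT3A (-1.07), a catalytic subunit of the oligosaccharyltransferase, the degradation factor SELS (-1.04), the translocation factor TRAM1 (-0.995), the cargo protein TMED9 (-0.98) and WFS1 (-0.75).

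In the additive model 4 of the 125 genes were called, all lower in BicR, by the quasi-likelihood test of edgeR with Benjamini-Hochberg adjustment. They were the disulfide isomerase PDIA2 (adjusted p = 0.0335), the co-chaperone DNAJC1 (0.0442), the apoptosis regulator BBC3 (0.0137) and ATF6B (0.0330), a relative of ATF6. Each was lower in BicR under all 3 treatments, and with either bicalutamide library left out 0 of the 4 were called. Over all genes, 395 of the 13885 tested, 2.84%, were called in that direction, a share near that of the 125. In PDIA2 the difference between the lines was -2.94 under ethanol, -0.99 under DHT and -1.18 under bicalutamide. BBC3 had -1.72, -1.71 and -0.76 in the same order.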

How the data were processed

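The 6 RNA-seq libraries, 1 per line and treatment, were made from total RNA (ISOGEN) and sequenced on SOLiD 3 Plus, per the labels' protocols. The authors deposited raw counts per gene symbol, and beside them RPKM values, which the authors scaled to gene length and depth, per the file headers. The submitters' processing notes name the build hg19. Not given in the sources used here were the aligner, the counting tool, the annotation and the use of strand, so reads of overlapping or near-identical genes may be shared. Of 21512 rows, 2988 were at 0 in every library.

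The 13885 genes that averaged 20 counts or more over the libraries were tested in edgeR 4.0.16 (R 4.3.3) with TMM scaling, a model of line plus treatment (2 residual and 6.8 prior degrees of freedom), the 2-sided quasi-likelihood test and Benjamini-Hochberg adjustment at 0.05. All genes entered the fit. The labels do not say whether any library pools cultures, so p-values reflect just the spread among these 6, which may be technical. Differences between 2 libraries were taken as log2(CPM + 1) and counted at 2-fold, with no test. Ratios carry exact 95% intervals conditional on the summed count. The floor for a count of 0 was 3 counts (0.0553 to 0.0715 CPM). RPKM was used to order genes by level, as an alternative scale and for relative length. Both steps were tested on simulated data. For the fits, the simulated counts had no difference between the lines and the same DHT change in both. Most members here differed in direction between the lines, so that simulation does not cover their case. Levels in CPM are given to compare libraries, not genes.

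The members and gene lists were chosen with earlier results of these data known. Values in all 6 libraries are given for 20 of the 40 genes. These are the 3 of each branch (2 in branches of under 6) with the largest difference of LNCaP DHT against ethanol, the 3 with the largest difference of BicR DHT against ethanol, the 3 with the largest fold change of BicR against LNCaP, and always XBP1, ATF6 and ERN1. Of the other lists, the gene with the largest LNCaP DHT difference and any that passed a test are named. Where others are named, as in the counts of 5 or fewer, they were picked after their values were seen. The alternatives were DESeq2 1.42.0 and its size factors, no count filter, pseudocounts of 0.1 and 5, RPKM, and leaving out each library. Promoter windows came from RefSeq (GRCh38.p14), with ERO1L and ERO1LB matched as ERO1A and ERO1B. PDIA3, DERL1, DERL3, SEC24D and KDELR2 were not matched. Protein sequences were not analysed here.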

Additional observations from a re-analysis of the deposited data

Results flagged for a closer look

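The response of the 40 genes to DHT went in opposite directions in the lines. The median difference of DHT against ethanol was -0.95 in LNCaP and 0.46 in BicR on the log2(CPM + 1) scale, and 38 of 40 genes were lower in LNCaP and higher in BicR. It is listed here because the values of the lines had opposite signs. With 1 library per line and treatment the difference was not tested. Beside it stands the measured fact that LNCaP ethanol held 4.04% of its counts in these genes, against 1.51% to 1.96% in the other 5 libraries, so the LNCaP value rests on that library.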

How the results depend on the processing

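The additive model called 0 members, so no call of it could reverse, and its uncalled medians changed sign with single libraries left out, from -0.29 to 0.37 without LNCaP ethanol for DHT against ethanol and from -0.29 to 0.14 without either ethanol library for BicR against LNCaP. Of 1800 alternative differences of single genes between 2 libraries, 234 moved beyond their counting interval. A change from at least 2-fold in one direction to the other occurred in 0, but changes of scale, pseudocount or filter could hardly produce one. Changes of sign below 2-fold were not counted here. In RPKM, XBP1 was higher in LNCaP bicalutamide (291) than in LNCaP ethanol (276), the reverse of its CPM order. Of 1440 alternative fold changes of single genes in the additive model, 37 were newly called. Members called lower for DHT against ethanol over both lines ranged from 0 to 11 when each library was left out, with 11 without BicR ethanol (0.763% of all genes). For bicalutamide against ethanol the range was 0 to 19, with 19 without BicR ethanol (0.684% of all genes). For DHT against bicalutamide members called higher ranged from 0 to 1, the 1 being MANF without LNCaP ethanol (0.915% of all genes). For BicR against LNCaP members called lower ranged from 0 to 1, the 1 being ERO1LB without LNCaP DHT or without BicR DHT (1.9% and 2.13% of all genes), and numbered 2 by DESeq2 and 2 with no count filter (SDF2L1 and PPIB both times, 6.72% and 4.63% of all genes). Leaving out a library leaves its treatment measured in 1 line, and that lone library is assumed to vary like the rest. The cause of the other changes was not tested. For LNCaP DHT against bicalutamide, members at least 2-fold higher numbered 1 with a pseudocount of 5, 1 with DESeq2 size factors and 0 with RPKM, and the median was -0.03 with RPKM. For BicR against LNCaP under DHT, 1 member (SDF2L1) was at least 2-fold lower with a pseudocount of 0.1. Other counts of members called or 2-fold apart stayed within 1.5 times, while counts at an unadjusted p under 0.05 did not. Chosen after seeing the data, RLE scaling and RPKM put LNCaP ethanol highest for 38 and 37 members, and BicR DHT highest of the other 5 for 29 and 24. DESeq2 called 75 genes higher and 24 lower for DHT against ethanol among all genes, 89 and 33 for DHT against bicalutamide, and 557 and 933 for BicR against LNCaP. No paired analysis was possible because each group holds 1 library and the labels give no replicate numbers, beyond the line term of the additive model, which already compares treatments within a line. Depth limits KDELR3 and DERL3 most, with wide counting intervals.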
